A study of Mus musculus with 8 samples.

Results

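Interferon stimulated genes were examined in subcutaneous tumors of the B16-mhgp100 mouse melanoma line, as a list of 42 gene symbols of which 42 were found among the 28918 genes of the expression table. Members were taken by symbol, with no threshold on a measured value. Tumors with over-expression of Colq, which encodes the collagen tail of acetylcholinesterase, were compared with tumors carrying the vector, and both groups grew in C57BL/6 mice that received 4 doses of 200 µg anti-PD1, given 2 per week and begun on day 10 of tumor growth. Tumors were harvested 1 day after the last dose, so no untreated tumor enters the comparison. The Colq group held 3 tumors with 1 library each, and the vector group held 3 tumors with 5 libraries, since vector tumors 1 and 2 were each sequenced as 2 portions. Portions were averaged within a tumor. The labels do not give the ages or sexes of the mice, or say whether a line was a single clone. RNA came from bulk tumor, which holds melanoma and host cells, so that fewer cells of a type and less RNA per cell cannot be told apart.

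Type I interferons bind the receptor of Ifnar1 and Ifnar2, and the kinases Jak1 and Tyk2 then activate a complex containing Stat2 and Irf9 that binds the interferon stimulated response element (ISRE). Interferon gamma binds Ifngr1 and Ifngr2 and acts at gamma-activated sequences (GAS). Some genes, such as the Ifit, OAS and Mx families, are best known as targets of type I interferon, whereas the immunity-related GTPases are strongly induced by interferon gamma. In tumors, both melanoma cells and infiltrating immune cells can express these genes.

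Promoter windows, from 250 bases before to 50 bases after the annotated start, were available for 30 of the 42 members from RefSeq on build GRCm38.p6. An ISRE-like motif, GAAA and GAAA separated by any 2 bases and read on both strands, was present for 16 of these 30 members (53.3%), against 3.99% of all genes with a window. A GAS-like motif, TTC and GAA separated by any 3 bases and read on both strands, was present for 10 of the 30 (33.3%), against 9.55% of all genes. A match describes the letters only and is not evidence of binding. The windows below are those of the 2 members with the highest and the 2 with the lowest fold change among members with a window, in that order, so that the sequences can be set beside the values that follow. Tgtp1 lies at chr11:48992197-48992496 on the minus strand, Ifi47 at chr11:49076337-49076636 on the plus strand, Rsad2 at chr12:26456403-26456702 on the minus strand and Ifih1 at chr2:62646206-62646505 on the minus strand. Each is written 5′ to 3′ along the gene, and capitals mark motif matches.
Tgtp1: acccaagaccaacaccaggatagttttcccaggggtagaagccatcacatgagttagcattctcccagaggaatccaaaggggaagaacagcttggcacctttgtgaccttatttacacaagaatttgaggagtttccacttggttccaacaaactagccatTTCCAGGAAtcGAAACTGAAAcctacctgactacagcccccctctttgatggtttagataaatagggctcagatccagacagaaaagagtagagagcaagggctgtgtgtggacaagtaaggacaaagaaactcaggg
Ifi47: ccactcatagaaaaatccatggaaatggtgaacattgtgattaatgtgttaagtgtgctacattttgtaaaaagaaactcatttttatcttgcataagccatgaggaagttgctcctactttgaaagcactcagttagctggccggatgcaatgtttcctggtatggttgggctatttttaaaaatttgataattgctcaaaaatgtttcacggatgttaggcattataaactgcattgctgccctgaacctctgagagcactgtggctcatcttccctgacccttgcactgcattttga
Rsad2: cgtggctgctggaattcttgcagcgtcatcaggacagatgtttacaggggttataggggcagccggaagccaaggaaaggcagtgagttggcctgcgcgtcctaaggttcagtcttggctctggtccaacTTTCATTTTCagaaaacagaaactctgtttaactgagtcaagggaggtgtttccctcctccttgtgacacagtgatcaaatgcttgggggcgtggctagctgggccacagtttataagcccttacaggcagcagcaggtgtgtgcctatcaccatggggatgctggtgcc
Ifih1: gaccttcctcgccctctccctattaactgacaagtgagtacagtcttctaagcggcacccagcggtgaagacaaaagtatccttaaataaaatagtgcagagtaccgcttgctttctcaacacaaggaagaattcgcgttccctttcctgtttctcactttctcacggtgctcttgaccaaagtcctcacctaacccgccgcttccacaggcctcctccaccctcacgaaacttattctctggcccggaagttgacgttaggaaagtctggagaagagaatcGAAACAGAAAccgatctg
Tgtp1 held 1 GAS-like match followed by 1 ISRE-like match, which did not overlap. Rsad2 and Ifih1 each held 1 ISRE-like match, on the reverse strand in Rsad2. In Ifi47 neither motif was found in this window.

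TPM, a length-corrected share of each library's transcripts, keeps no read number, and the depth of these values is unknown. Between 19887 and 21602 genes were above 0 in each library. As a check of the labels, Colq stood at 4.05, 5.03 and 3.86 TPM in Colq libraries, against 0, 0.24, 0.10, 0.03 and 0.18 TPM in vector libraries. The median gene was lower in Colq tumors by a log2 fold change of -0.50 on the deposited TPM scale, so fold changes were also taken after median-of-ratios size factors, which place the median gene at -0.01. Size factors were 0.81 to 0.85 in Colq libraries and 1.18 to 1.30 in vector libraries. The 3 Colq libraries lay close together: over members, pairs of Colq libraries had a median absolute log2 difference of 0.065 to 0.083, against 0.182 to 0.231 between portions of the same vector tumor. Over all genes the corresponding values were 0.104 to 0.107 and 0.141 to 0.196. The labels call them 3 tumors, and they were counted as such; p-values measure only the spread between these samples, and counts with the Colq libraries taken as 1 sample are given beside the main counts. Summed markers of other cells also differed between the groups. The 8 skeletal muscle markers summed to 779 to 800 TPM in Colq libraries and 30.5 to 153 TPM in vector libraries. The 6 macrophage and monocyte markers summed to 987 to 1003 TPM in Colq libraries and 239.7 to 470.5 TPM in vector libraries. Most of that gap was Lyz2, with 864.7 to 873.4 TPM in Colq libraries and 153.5 to 296.5 TPM in vector libraries. The other 5 macrophage markers summed to 117.2 to 129.6 TPM in Colq libraries and 72.1 to 174 TPM in vector libraries, so the groups overlapped on deposited TPM. After size factors 5 of the 6 macrophage markers rose and 1 did not pass (background 27.3% rising; limma, adjusted p under 0.05). Their median log2 fold change was 1.08. The 7 T and NK cell markers summed to 38.8 to 48.0 TPM in Colq libraries and 15.4 to 28.7 TPM in vector libraries. Of the 6 that were tested, 4 rose after size factors (background 27.3%), and Cd3e and Cd4 did not pass. The 7 melanocyte markers summed to 10949 to 11272 TPM in Colq libraries and 17604 to 22339 TPM in vector libraries, so markers of the labelled line were abundant in every library. Of these 7, 4 fell after size factors (background 26.7%), 2 rose (background 27.3%; Mlana by 0.81 and Tyr by 0.36) and Dct did not pass. The part of these cell types in the results was not tested.

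Vector tumor 3 stood apart from the other vector tumors in these genes. It was the lowest of the 5 vector libraries in 34 of 42 members on deposited TPM, against 20.7% of all tested genes, and the highest in 0 members. After size factors it was lowest in 36 of 42 members, against 23.7% of all genes. Its log2 difference from the mean of vector tumors 1 and 2 after size factors had a median of -0.59 over members, ranging from -1.28 to 0.12, whereas the median of all genes was -0.004. By group median, the gap was deepest in the ISG15, Ifit, OAS and Mx groups. Oas3, Isg15 and Ifit3 had differences of -1.28, -1.15 and -1.11, while Ifi47, Tgtp1 and Iigp1 had 0.02, -0.01 and -0.10. By the same measure, vector tumor 1 minus vector tumor 2 had a median of -0.13 over members. Vector tumor 3 also had the lowest macrophage sum of all libraries (239.7 TPM, or 72.1 TPM without Lyz2) and the highest melanocyte sum (22339 TPM). Its T and NK cell sum was 15.4 TPM, beside 15.5 TPM in portion 2 of vector tumor 1. The part of these cells was not tested. Fold changes without vector tumor 3 are therefore also given for the members whose call after size factors its removal changes. That tumor was singled out by its low values in these same genes. Leaving it out raises the vector mean, and so lowers the fold change, of a gene in which it is low. P-values in that setting rest on vector tumors 1 and 2 alone in the vector group and are not separate support.

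**Figure D1:**
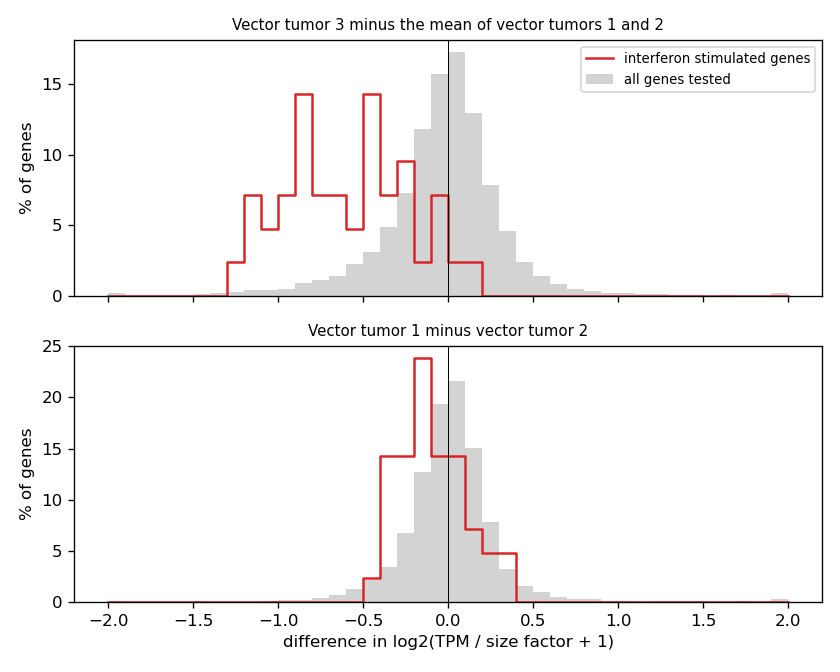
Differences among vector tumors in log2(TPM / size factor + 1), as the percentage of genes in each bin, with interferon stimulated genes as a red outline and all tested genes in grey (values beyond 2 in the end bins). Upper panel: vector tumor 3 minus the mean of tumors 1 and 2, where the genes centre on -0.59. Lower panel: vector tumor 1 minus tumor 2, where they centre on -0.13.

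The spread over tumors followed the same pattern. The SD of log2(TPM + 1) over the 3 Colq tumors had a median of 0.051 over members and 0.094 over all genes. Over the 3 vector tumors it had a median of 0.325 over members and 0.141 over all genes. The SD was larger in vector than in Colq tumors for 40 of 42 members, against 65.6% of all tested genes. Members were expressed well above the median gene: their mean TPM over the 6 tumors had a median of 56.9, from 7.21 to 1108, against 15.4 for the 13726 genes that reached a mean of 1 TPM and were tested. All 42 members passed that filter. Bst2, an interferon-induced membrane protein that tethers virions, was the highest, at 1049, 1075 and 1028 TPM for the Colq tumors and 1042, 1208 and 1245 TPM for the vector tumors.

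**Figure D2:**
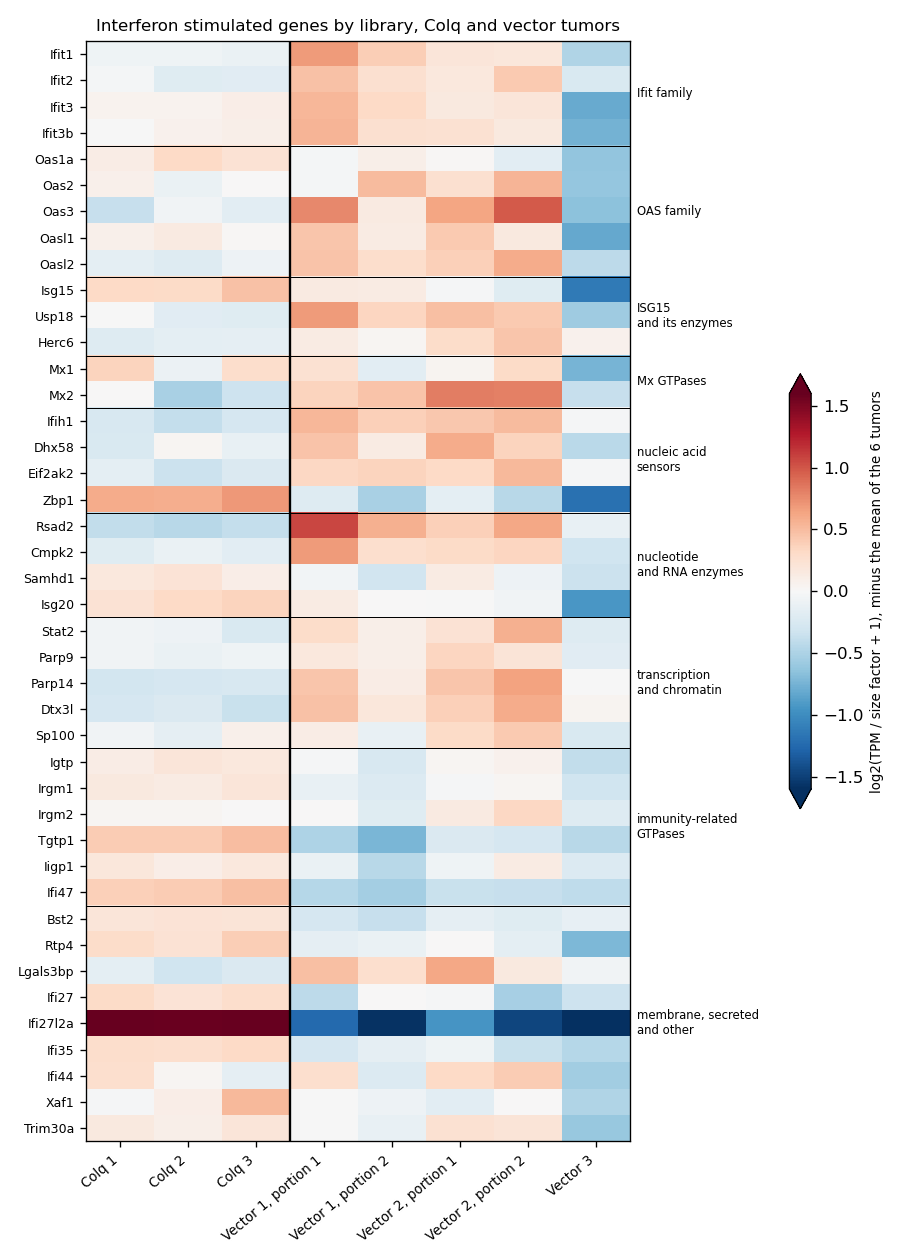
Each interferon stimulated gene (rows, grouped by role) in the 3 Colq libraries and the 5 vector libraries (columns); colour gives log2(TPM / size factor + 1) minus the mean of the 6 tumors. The last column, vector tumor 3, is blue in most rows of the upper groups. The row of Ifi27l2a lies close to the upper end of the colour scale in all 3 Colq libraries and beyond its lower end in vector tumor 3.

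The interferon stimulated genes did not move as a block between Colq and vector tumors. On deposited TPM, 4 members rose (background over all genes 11.3%), 20 fell (background 59.6%) and 18 did not pass the test (limma with Benjamini-Hochberg adjustment over all genes, adjusted p under 0.05). Their median log2 fold change was -0.41, beside -0.50 for all genes. After size factors, 12 members rose (background 27.3%), 7 fell (background 26.7%) and 23 did not pass, with a median of 0.11 beside -0.01 for all genes. The share of members that rose is near the background and the share that fell is below it, with no test of either. Every Colq library lay above every vector library in 13 members (background 26.7%) and below in 7 (background 27%), and the groups overlapped in 22. On deposited TPM, it lay above in 4 members (background 9.92%) and below in 18 (background 57.4%). The 7 members that fell on both scales were Herc6, Ifih1, Eif2ak2, Rsad2, Parp14, Dtx3l and Lgals3bp. The 4 that rose on both were Zbp1, Tgtp1, Ifi47 and Ifi27l2a. Irgm1 and Iigp1 fell on deposited TPM and rose after size factors, so their direction depends on the scale. Without vector tumor 3, 14 members rose (background 27%) and 20 fell (background 26.7%) after size factors, and the median turned to -0.22. The low values of vector tumor 3 in these genes fixed the direction of that shift. With the Colq libraries taken as 1 sample, 4 rose (Tgtp1, Ifi47, Ifi27 and Ifi27l2a; background 11.9%) and 0 fell after size factors (background 8.21%; limma, with 1 lower at an unadjusted p under 0.05). On deposited TPM the same setting gave 1 rising (background 5.74%) and 8 falling (background 41.6%). In the following, levels are deposited TPM, and fold changes and calls are after size factors unless the deposited scale is named.

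**Figure D3:**
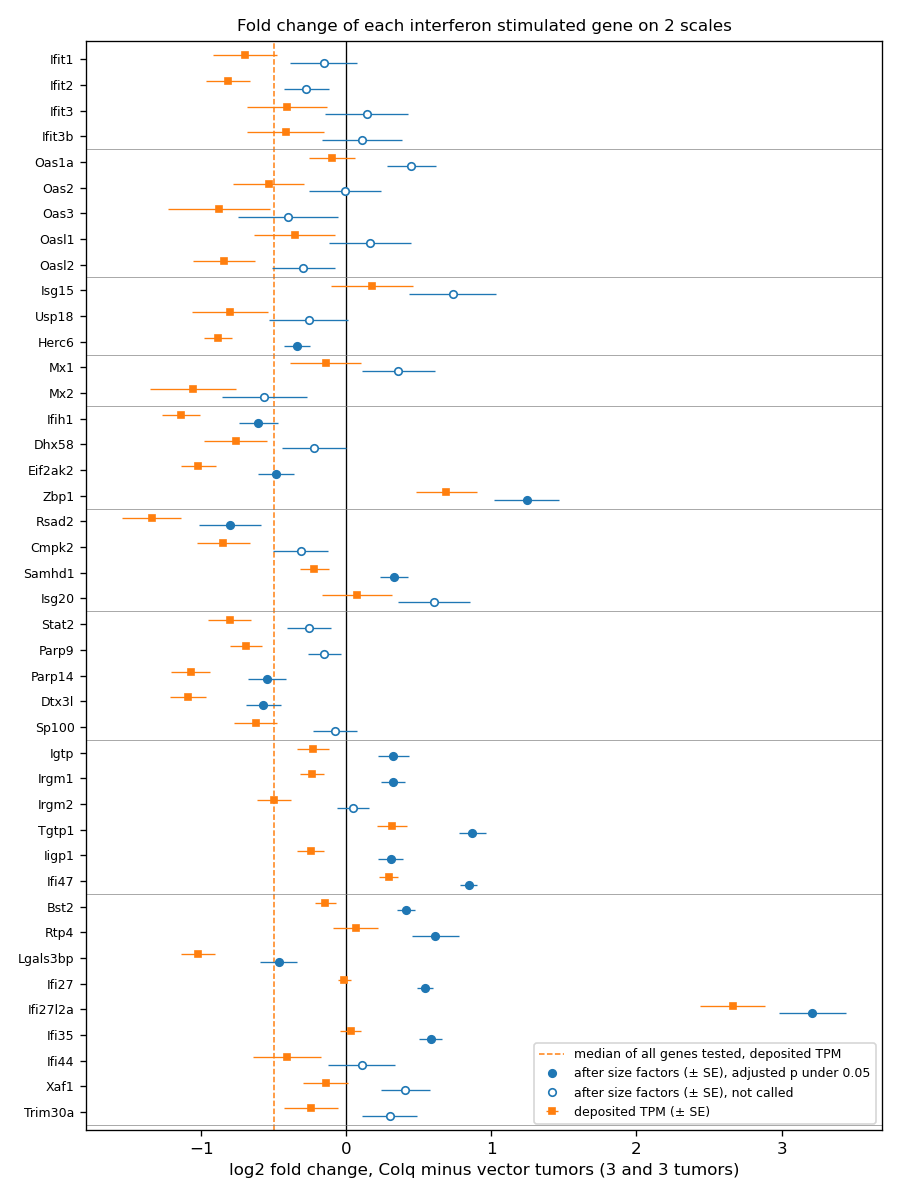
Log2 fold change, Colq minus vector tumors (3 and 3), of each interferon stimulated gene on deposited TPM (orange squares) and after size factors (blue circles, filled where the adjusted p is under 0.05); bars are standard errors and grey lines separate roles. The dashed line is the median of all genes on deposited TPM, -0.50. Blue points lie on both sides of 0, with Ifi27l2a at 3.21 farthest to the right and Rsad2 at -0.80 farthest to the left.

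The immunity-related GTPases, which attack the vacuoles of intracellular pathogens, rose in 5 of 6 members (background 27.3%). They fell in 0 (background 26.7%; limma, with 0 lower at an unadjusted p under 0.05), with a median of 0.32. Without vector tumor 3, 4 of 6 rose (background 27%). With the Colq libraries as 1 sample fewer rose, as was also so over all genes. Ifi47 had 235.5, 242.9 and 246.4 TPM in Colq libraries, against 187.4, 176.8, 198.9, 218.5 and 202.4 TPM in vector libraries. Every Colq library was above every vector library, and the log2 fold change was 0.84 (SE 0.06, adjusted p = 5e-05) after size factors and 0.29 (adjusted p = 0.0047) on the deposited scale. Tgtp1 had 236, 238 and 244 TPM in Colq libraries, against 179.5, 151.6, 213.0, 230.6 and 194.6 TPM in vector libraries, again without overlap. Its log2 fold change was 0.87 (SE 0.09, adjusted p = 0.000313), and 0.31 (adjusted p = 0.0259) as deposited, a call lost without Colq tumor 1 (0.0626), 2 (0.0656) or 3 (0.0782). Tgtp1 shares 79.4% of its 50-base words with Tgtp2, so that reads may be split between these copies and the value is uncertain. Irgm1, a regulatory member of the family, had 259.6, 258.7 and 258.8 TPM in Colq libraries, against 305, 284, 323, 371 and 278 TPM in vector libraries. Here every Colq library was below every vector library, and the fold change was -0.24 (adjusted p = 0.0353) on the deposited scale but 0.32 (adjusted p = 0.0149) after size factors. The call after size factors was lost without Colq tumor 3 (adjusted p = 0.0537), and the deposited call without any of Colq tumors 1, 2 and 3 (0.0867, 0.0874 and 0.0894) or vector tumors 1 and 2 (0.0549 and 0.0527). Iigp1, an effector GTPase, likewise had -0.25 (adjusted p = 0.0482) on the deposited scale and 0.31 (adjusted p = 0.0209) after size factors, and both calls were fragile. After size factors the call was lost without Colq tumor 1 (0.0703), Colq tumor 3 (0.0662), vector tumor 1 (0.0637) or vector tumor 3 (0.0533), and as deposited without Colq tumors 1, 2 or 3 (0.0861, 0.122 and 0.119) or vector tumors 2 or 3 (0.0897 and 0.0596). Igtp rose by 0.32 (adjusted p = 0.0388), a call lost without Colq tumor 1, 2 or 3 or vector tumor 1, with the highest adjusted p at 0.105. Irgm2 had a fold change of 0.05 (adjusted p = 0.742), and it overlaps Igtp in 162 exonic bases on the same strand.

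Genes of the membrane, secreted and remaining group included the largest change. Of these 9 members 5 rose (background 27.3%) and 1 fell (background 26.7%). The same counts held without vector tumor 3 (backgrounds 27% and 26.7%). Counting the Colq tumors as 1 left fewer rising and falling, as was also so over all genes. Once the length trend was removed 1 rose (background 23.6%) and 2 fell (background 23.1%). Ifi27l2a, which encodes a small interferon-induced protein, had 346, 343 and 337 TPM in Colq libraries, against 66.4, 52.8, 81.8, 62.5 and 35.4 TPM in vector libraries. No library of the groups overlapped, and the log2 fold change was 3.21 (SE 0.23, adjusted p = 5.82e-05) after size factors and 2.66 (adjusted p = 4.94e-05) on the deposited scale. Its relative Ifi27 had 721, 685 and 688 TPM in Colq libraries, against 615, 829, 809, 627 and 686 TPM in vector libraries. On deposited TPM these groups overlapped fully and the fold change was -0.01 (adjusted p = 0.818), whereas after size factors it was 0.54 (adjusted p = 0.000291). Portion 1 minus portion 2 of Ifi27 was -0.43 in vector tumor 1 and 0.36 in vector tumor 2 on the deposited log2 scale. Lgals3bp, a secreted glycoprotein that binds galectins, had 168, 151 and 155 TPM in Colq libraries, against 369, 320.0, 405, 326 and 266 TPM in vector libraries. It fell on both scales, with log2 fold changes of -0.47 (adjusted p = 0.0164) after size factors and -1.02 (adjusted p = 0.000181) as deposited. The first of these calls was lost without Colq tumor 2 (0.0603), Colq tumor 3 (0.0507), vector tumor 1 (0.0577) or vector tumor 2 (0.0547). Ifi35, Rtp4 and Bst2 rose by 0.58, 0.61 and 0.41 after size factors (adjusted p = 0.000886, 0.0165 and 0.00163), and as deposited their fold changes were 0.03, 0.06 and -0.14, with adjusted p = 0.72, 0.721 and 0.117. The call of Rtp4, a chaperone of the Golgi, was lost without Colq tumor 3 (adjusted p = 0.0589). Xaf1, Ifi44 and Trim30a did not pass on either scale.

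Of the nucleic acid sensors, Zbp1 rose, Ifih1 and Eif2ak2 fell and Dhx58 did not pass. Zbp1, which binds Z-form nucleic acids and can trigger necroptosis, had 204, 205 and 215 TPM in Colq libraries, against 166, 135, 171, 155 and 87.2 TPM in vector libraries. Its groups did not overlap, with a log2 fold change of 1.24 (SE 0.22, adjusted p = 0.00297) after size factors, and 0.69 (adjusted p = 0.0213) as deposited. The deposited call was lost without Colq tumor 1 (0.0555), 2 (0.0557) or 3 (0.0662). Vector tumor 3 was the lowest library, and without it the change after size factors was 0.95 (adjusted p = 8.89e-05). Ifih1, which encodes the double-stranded RNA sensor MDA5, had 15.6, 14.5 and 15.03 TPM in Colq libraries, against 39.2, 35.2, 36.2, 42.3 and 27.7 TPM in vector libraries. Every Colq library was below every vector library, with -0.61 (SE 0.14, adjusted p = 0.00795) after size factors and -1.14 (adjusted p = 0.00018) as deposited. Eif2ak2, the double-stranded RNA-dependent kinase PKR, had 18.3, 16.3 and 16.9 TPM in Colq libraries, against 36.9, 37.6, 36.4, 46.4 and 30.0 TPM in vector libraries. It fell by 0.49 (SE 0.12, adjusted p = 0.0132) on the log2 scale after size factors. Dhx58, which encodes the MDA5 regulator LGP2, had -0.23 (adjusted p = 0.422), and without vector tumor 3 -0.50 (adjusted p = 0.00776).

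The Ifit, OAS and Mx genes are the classical antiviral effectors. After size factors, 0 of these 11 members rose or fell (backgrounds 27.3% and 26.7%; limma, with 1 at an unadjusted p under 0.05). Calls appeared without vector tumor 3, whose low values in these genes set the direction of that shift beforehand. Ifit proteins bind foreign RNA, OAS enzymes make the oligoadenylates that activate RNase L, and Mx GTPases block viral nucleocapsids. Ifit1 had 33.2, 33.6 and 31.4 TPM in Colq libraries, against 79.5, 65.0, 55.9, 61.6 and 36.5 TPM in vector libraries. On deposited TPM vector tumor 3 was nearest to the Colq libraries, and after size factors it lay below them. The log2 fold change was -0.15 (adjusted p = 0.599), against -0.44 (adjusted p = 0.0136) without that tumor. Without vector tumor 3, 4 of 4 Ifit genes fell (background 26.7%). Ifit2 had -0.47 (adjusted p = 0.00263), Ifit3 -0.24 (adjusted p = 0.0474) and Ifit3b -0.25 (adjusted p = 0.0477). With all tumors Ifit3 and Ifit3b had 0.14 and 0.11, so their sign also turned. Ifit3 shares 51.2% of its 50-base words with Ifit3b, and their separate values are uncertain. Of the 5 OAS genes, Oas2, Oas3 and Oasl2 fell and Oas1a rose without vector tumor 3. Oas2 had -0.01 (adjusted p = 0.974) over all tumors and -0.33 (adjusted p = 0.0218) without that tumor, and Oasl2 had -0.30 (adjusted p = 0.292) and -0.58 (adjusted p = 0.000727). Oasl1, whose product lacks the enzyme activity, had 0.16 (adjusted p = 0.658) over all tumors and -0.21 (adjusted p = 0.0533) without vector tumor 3. Oas3 had 3.83, 5.04 and 4.40 TPM in Colq libraries, against 13.4, 8.31, 11.96, 17.3 and 4.47 TPM in vector libraries. On deposited TPM the library of vector tumor 3 lay within the Colq range and the other 4 above it. After size factors that of vector tumor 3 lay below the Colq range. The change was -0.40 (adjusted p = 0.359) over all tumors and -0.83 (adjusted p = 0.00472) without vector tumor 3. Oas1a had 0.45 (adjusted p = 0.0573), or 0.24 (adjusted p = 0.0374) without vector tumor 3, and it shares 57.6% of its 50-base words with Oas1g, which makes the value uncertain. Mx2 had 6.97, 4.65 and 5.22 TPM in Colq libraries, against 13.0, 14.0, 18.1, 20.0 and 7.69 TPM in vector libraries. It fell on the deposited scale, with -1.06 (adjusted p = 0.0137), a call lost without Colq tumor 2 (0.0517) or vector tumor 1 (0.0524), and had -0.57 (adjusted p = 0.146) after size factors, or -0.89 (adjusted p = 0.00874) without vector tumor 3. Mx1 had 0.36 (adjusted p = 0.26); most laboratory strains, C57BL/6 among them, carry a defective allele of it.

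ISG15 is a ubiquitin-like protein that Herc6 attaches to proteins in the mouse and Usp18 removes. Isg15 had 291, 290.2 and 315 TPM in Colq libraries, against 364, 361, 323, 319 and 157 TPM in vector libraries. The Colq libraries lay between vector tumor 3 and the other vector libraries, and the log2 fold change on the deposited scale was 0.18 (adjusted p = 0.589) over all tumors and -0.19 (adjusted p = 0.0418) without vector tumor 3. After size factors it was 0.73 (adjusted p = 0.0727) with that tumor and 0.34 (adjusted p = 0.0188) without it. Usp18, which also restrains signalling at the type I receptor, had 36.0, 32.2 and 30.8 TPM in Colq libraries, against 83.3, 66.0, 71.5, 76.2 and 35.8 TPM in vector libraries. Vector tumor 3 lay within the Colq range on deposited TPM and below it after size factors. The change was -0.26 (adjusted p = 0.454) over all tumors and -0.61 (adjusted p = 0.00104) without vector tumor 3. Herc6 fell, with a log2 fold change of -0.34 (adjusted p = 0.0161), and -0.88 (adjusted p = 0.000149) as deposited. The Herc6 call was lost without Colq tumor 1 (adjusted p = 0.0563). Ube2l6, the conjugating enzyme for ISG15 and not a member, rose on both scales, with a mean of 177 ± 5.1 TPM for the Colq tumors and of 124 ± 16.4 TPM for the vector tumors (SD, n = 3 each) and a log2 fold change of 1.07 (limma, adjusted p = 0.000162).

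Among the nucleotide and RNA enzymes, Rsad2 fell and Samhd1 rose. Rsad2 encodes viperin, which makes a chain-terminating nucleotide, and had 22.5, 21.9 and 22.1 TPM in Colq libraries, against 89.6, 63.4, 54.6, 71.9 and 40.7 TPM in vector libraries. The groups did not overlap, and the log2 fold change was -0.80 (SE 0.21, adjusted p = 0.0158) after size factors and -1.34 (adjusted p = 0.000664) as deposited. The first call was lost without Colq tumor 2 (adjusted p = 0.0517) or vector tumor 2 (adjusted p = 0.0556). Cmpk2, a mitochondrial nucleotide kinase, had -0.32 (adjusted p = 0.203), and fell without vector tumor 3, with -0.56 (adjusted p = 0.00141). Samhd1, which hydrolyses deoxynucleotides, had 0.33 (adjusted p = 0.024), a call lost with first portions only (adjusted p = 0.145). It was also lost without Colq tumor 1 (0.065), 2 (0.0778) or 3 (0.0507) and without vector tumor 1 (0.0685). Isg20, an exonuclease, had 0.61 (adjusted p = 0.0751) with all tumors and 0.28 (adjusted p = 0.0182) without vector tumor 3.

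On the deposited scale the transcription and chromatin genes fell in 5 of 5 members (background 59.6%). After size factors 2 of 5 fell (background 26.7%), with a median of -0.26. Parp14, an ADP-ribosyltransferase, had 12.9, 13.3 and 12.9 TPM in Colq libraries, against 31.4, 24.7, 31.1, 39.7 and 23.7 TPM in vector libraries. Every Colq library was below every vector library, with -0.55 (SE 0.13, adjusted p = 0.0112). Dtx3l, a ubiquitin ligase that works as a complex with Parp9, had 10.1, 10.6 and 9.25 TPM in Colq libraries, against 24.8, 20.1, 23.2, 30.1 and 19.1 TPM in vector libraries. Its groups did not overlap either, and it fell by 0.57 (SE 0.12, adjusted p = 0.00592) on the log2 scale. Its exons overlap those of Parp9 by 458 bases on the opposite strand, and the libraries carry no strand. Parp9, Stat2 and Sp100 had -0.15, -0.26 and -0.08 (adjusted p = 0.301, 0.182 and 0.685). Stat2 and Parp9 fell without vector tumor 3, with log2 fold changes of -0.43 (adjusted p = 0.00815) and -0.28 (adjusted p = 0.013).

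**Figure D4:**
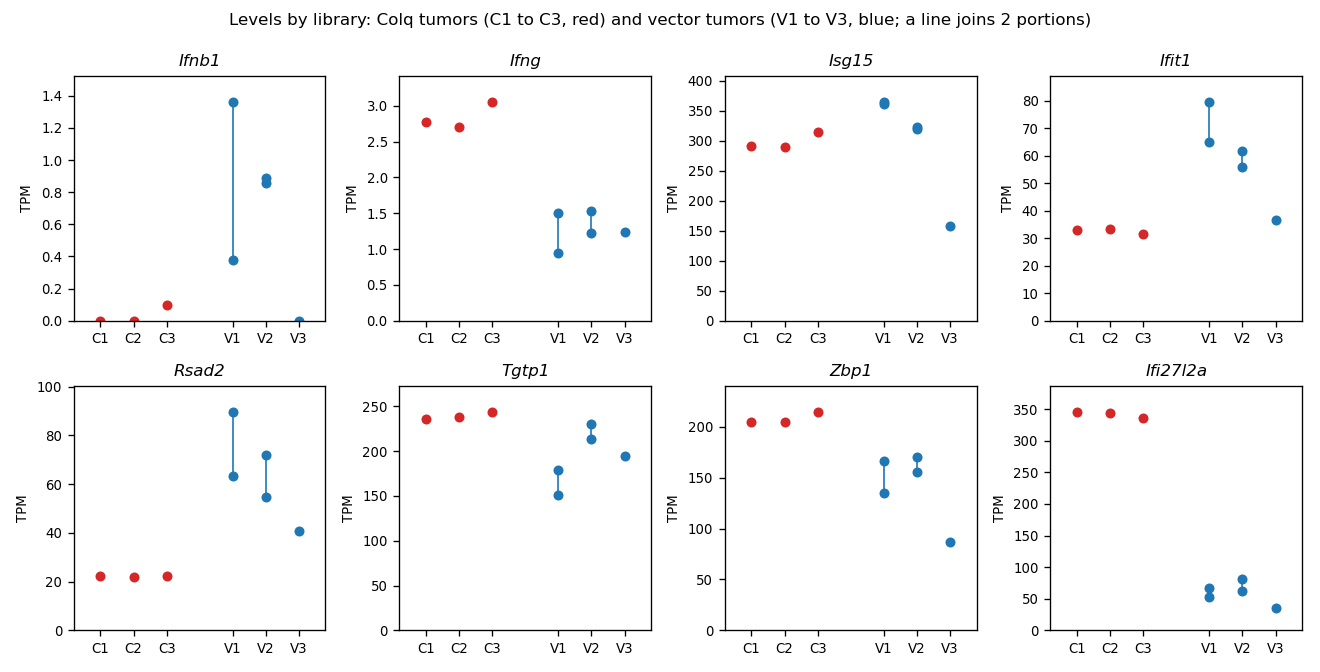
TPM by library of Ifnb1, Ifng and 6 interferon stimulated genes in Colq tumors (C1 to C3, red) and vector tumors (V1 to V3, blue; a line joins 2 portions of a tumor); each vertical axis starts at 0. Vector tumor 3 is the lowest vector library in Ifnb1, Isg15, Ifit1, Rsad2, Zbp1 and Ifi27l2a, and Ifng, Tgtp1, Zbp1 and Ifi27l2a are higher in all Colq libraries.

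Genes upstream of the members were described from lists of the pathway. Of 21 interferon ligands, 7 were in the table and 1, Ifng, passed the filter. Ifng had 2.77, 2.70 and 3.05 TPM in Colq libraries, against 0.95, 1.51, 1.53, 1.23 and 1.24 TPM in vector libraries. It rose on both scales, by 1.11 (SE 0.13, adjusted p = 0.000468) after size factors and 0.75 (adjusted p = 0.00163) as deposited, on the log2(TPM + 1) scale that understates changes of low genes. Ifnb1 had 0, 0 and 0.10 TPM in Colq libraries, against 1.36, 0.38, 0.89, 0.86 and 0 TPM in vector libraries. It was listed at 0 in vector tumor 3 as in 2 of the 3 Colq tumors, and the two-sided exact permutation p was 0.4 (6 tumors), where 0.1 is the smallest possible. Ifna12, Ifna13, Ifne and Ifnz stayed at or below 0.48 TPM in every library, and Ifnk was listed at 0 in all 8. The 6 markers of plasmacytoid dendritic cells, which make much type I interferon, summed to 13.6 to 14.2 TPM in Colq libraries and 21.1 to 44.0 TPM in vector libraries, but Siglech, Ccr9 and Spib were at most 1.08 TPM in any library. Tcf4 alone had 8.4 to 9.1 TPM in Colq libraries and 19.4 to 33.3 TPM in vector libraries, and Ly6d reached 17.94 TPM in 1 portion of vector tumor 1. The 4 other markers summed to 1.8 to 2.2 TPM in Colq libraries and 0.8 to 1.6 TPM in vector libraries.

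Of 6 receptor genes, 3 rose (background 27.3%) and 1 fell (background 26.7%) after size factors. As deposited, 0 rose (background 11.3%; limma, 0 also at an unadjusted p under 0.05) and 3 fell (background 59.6%). Ifnar1 fell on both scales, with a mean of 17.2 ± 0.77 TPM for the Colq tumors and of 30.2 ± 2.0 TPM for the vector tumors (SD, n = 3 each) and a log2 fold change of -0.24 (limma, adjusted p = 0.0208). Ifnar2 and Il10rb, a shared subunit of the lambda interferon receptor, fell as deposited and rose after size factors, by 0.25 and 0.28. Ifngr1 had -0.26 (adjusted p = 0.0536) as deposited and 0.27 (adjusted p = 0.0415) after size factors. Of 11 kinases and transcription factors outside the members, 4 rose (background 27.3%) and 4 fell (background 26.7%). Jak1 and Irf2 fell, with log2 fold changes of -0.52 and -0.35 (limma, adjusted p = 0.0017 and 0.0298), and Jak2 had -0.14 (adjusted p = 0.166). Of 12 sensors and adaptors that act upstream of interferon, 1 rose (background 27.3%) and 6 fell (background 26.7%). The ligase Trim25, the RNA sensor Rigi, its adaptor Mavs and the endosomal sensor Tlr3 fell, with log2 fold changes of -0.62, -0.63, -0.26 and -0.46. Of 7 negative regulators outside the members, 3 rose (background 27.3%) and 2 fell (background 26.7%). The phosphatase Ptpn11 and the SUMO ligase Pias1 fell, with -0.53 and -0.43, whereas Ptpn2 rose by 0.22 and Ptpn1 had -0.05 (adjusted p = 0.733). Of 50 further interferon-inducible genes tested, 17 rose (background 27.3%) and 5 fell (background 26.7%). Without vector tumor 3, 18 rose (background 27%) and 12 fell (background 26.7%). Ifi205, Ifitm1 and Slfn2 rose, by 2.38, 1.77 and 1.66 (limma, adjusted p = 0.000144, 0.00105 and 0.00134), and were named after their values were seen. By smallest p on the deposited scale, Slfn9, Rnf213 and Znfx1 fell, with -1.19, -1.01 and -0.69, and Parp12 had -0.20 (adjusted p = 0.0871). With the Colq libraries as 1 sample, 0 of the 6 receptors and 0 of the 11 kinases and factors passed in limma (0 and 4 at an unadjusted p under 0.05), while Ifng still rose. In the same setting 3 of the 50 further genes rose (background 11.9%) and 1 fell (background 8.21%). Of the 12 sensors and adaptors 0 rose (limma, with 1 higher at an unadjusted p under 0.05) and 1 fell.

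Fold changes also varied with gene length, taken as exonic bases in a GRCm38 annotation. On the deposited scale the median of all genes was 0.31 below 1000 bases, -0.02 from 1000 to 2000, -0.38 from 2000 to 4000, -0.64 from 4000 to 8000 and -0.88 from 8000 bases. Members had medians of 0.18, -0.01, -0.42, -0.69 and -0.98 in these classes, with 3, 5, 15, 15 and 4 genes. Ifi27l2a, the member with the highest fold change, is also the shortest, with 463 bases. With a loess trend on length removed from each tumor after size factors, 7 members rose (background 23.6%; Zbp1, Samhd1, Irgm1, Tgtp1, Iigp1, Ifi47 and Ifi27l2a) and 5 fell (background 23.1%; Eif2ak2, Rsad2, Dtx3l, Bst2 and Lgals3bp). Ifi27l2a then had 2.26 (adjusted p = 0.000207) and Zbp1 1.19 (adjusted p = 0.00421). Bst2, with 903 bases, turned to -0.26 (adjusted p = 0.0414). The calls of Herc6, Ifih1, Parp14, Igtp, Ifi27, Ifi35 and Rtp4 were lost, with adjusted p from 0.0535 to 0.962. Of the immunity-related GTPases, 4 rose (background 23.6%) and 0 fell (background 23.1%), with a median of 0.46.

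**Figure D5:**
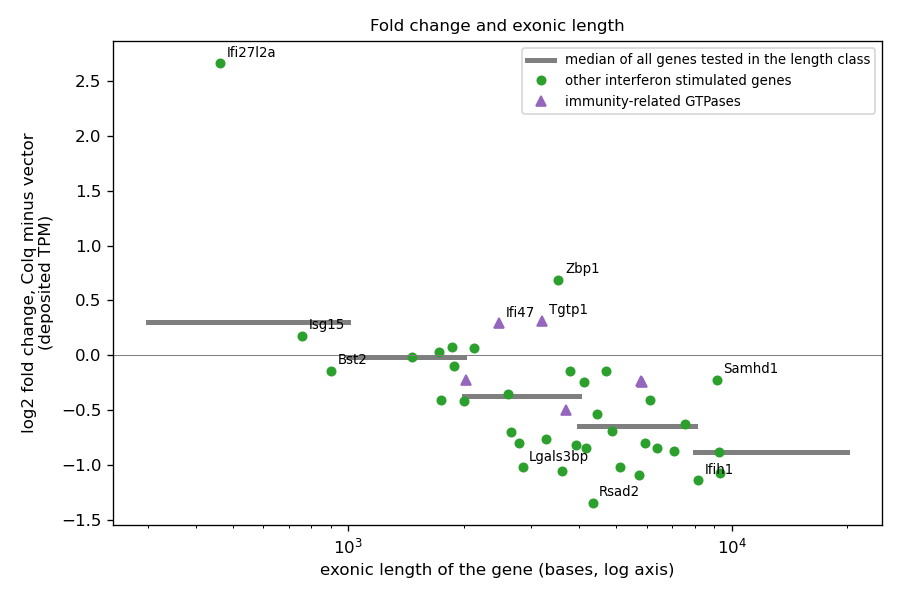
Log2 fold change on deposited TPM, Colq minus vector tumors, of each interferon stimulated gene against its exonic length in bases (log axis), with the immunity-related GTPases as triangles; grey bars are medians of all tested genes per length class, whose outer classes are open-ended. Most points follow the bars, with Ifi27l2a, Zbp1, Ifi47, Tgtp1 and Samhd1 among those above them and Rsad2, Mx2 and Lgals3bp among those below.

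In the authors' deposited table, 14 members were higher in Colq tumors (background 20.1%), 8 were lower (background 20.4%) and 20 did not pass an adjusted p of 0.05. The authors' deposited table gave log2 fold changes of 3.17 for Ifi27l2a, 1.19 for Zbp1, 0.85 for Tgtp1, 0.84 for Ifi47 and -0.90 for Rsad2. Mx2, Oas1a and Xaf1 passed in the authors' deposited table, with log2 fold changes of -0.71, 0.42 and 0.40 (adjusted p = 0.0408, 0.0184 and 0.0346), and did not pass after size factors here. That table is made from libraries of the same tumors and is not separate evidence.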

How the data were processed

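Tumor RNA was extracted with TRIzol, and, per the labels' protocols, poly-A libraries were non-directional. The authors deposited log2(TPM + 1) values; the submitters' processing notes name RSEM and build mm39, and no source used here gives the aligner, versions or annotation. The deposited comparison holds, per the file headers, p-values, a test score, a log2 fold change with its standard error and a mean signal per gene. DESeq2 is named in the submitters' processing notes. No source used here says which libraries entered the comparison, and Colq served to read its direction. IDs were matched to symbols for 26581 of 27664 genes. The receptor repertoire table was not used here.

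Values were returned to TPM, and the 13726 genes that averaged 1 TPM or more across 6 tumors entered the test as log2(TPM + 1), or log2(TPM / size factor + 1), with portions averaged per tumor, by limma 3.58.1 (lmFit, eBayes with trend) in R 4.3.3, with Benjamini-Hochberg adjustment over all genes. Fold changes are Colq minus vector. The fit was tested on simulated data. All 42 members are named, together with up to 4 genes of each pathway list by smallest p, of which 1 is not reported here; members and lists were chosen with earlier results of these data known. Shared 50-base words, exonic lengths (96.2% of tested genes, loess span 0.5) and overlaps came from a GRCm38 annotation, which differs from the authors' build, and promoter windows from RefSeq. Python 3.11.15, pandas 2.3.3, numpy 2.4.6 and matplotlib 3.10.9 were used for sequences and figures. Alternatives were a replicate block, another pseudocount (0.1), other filters, other handling of portions, a length trend, other scalings, leaving out each tumor and, added after seeing the data, the Colq libraries as 1 sample and list counts without vector tumor 3 or with the length trend removed. Groups of 3 tumors and values without depth limit the precision.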

Additional observations from a re-analysis of the deposited data

How the results depend on the processing

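Of the calls on members, 6 of 24 on the deposited scale and 6 of 19 after size factors kept their direction and side of the threshold under all 16 alternatives planned. Those after size factors were Eif2ak2, Zbp1, Dtx3l, Tgtp1, Ifi47 and Ifi27l2a. The Colq libraries as 1 sample were not among these alternatives, and in that setting Eif2ak2, Zbp1 and Dtx3l did not pass.

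On the deposited scale, 4 members rose (background 11.3%) and 20 fell (background 59.6%). With no filter 2 rose (background 6.29%). After removal of the length trend 7 rose (background 23.2%) and 5 fell (background 23.5%). Quantile normalization gave 7 falling (background 30.3%). In the authors' deposited comparison 14 rose (background 20.1%) and 8 fell (background 20.4%). Leaving out each tumor gave 2 to 4 rising (background 9.54% to 11.3%) and 15 to 32 falling (background 54.5% to 59.9%). The background thus moved with the setting as well. After size factors, 12 rose (background 27.3%) and 7 fell (background 26.7%). Removing the length trend left 7 rising (background 23.6%) and 5 falling (background 23.1%). Each tumor left out in turn gave 7 to 14 rising (background 23.1% to 27%) and 5 to 20 falling (background 21.8% to 26.7%). The count of 20 was reached without vector tumor 3. The median fold change of -0.415 on the deposited scale became -0.055 with the length trend removed and 0.108 after size factors, and -0.737 to -0.279 when each tumor was left out. After size factors the leave-one-out range was -0.218 to 0.242. With the Colq libraries as 1 sample, a setting chosen after seeing the data, 1 rose and 8 fell as deposited, and 4 rose and 0 fell after size factors; this fit has fewer samples and takes its spread from the vector tumors alone.

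Among values that passed the test with or without the change of setting, direction turned in 9 cases; 43 other sign changes, in 19 members, were between values that passed in neither. Leaving out each tumor gave Isg15 -0.192 to 0.408 and Isg20 -0.238 to 0.237 on the deposited scale, and Ifit3 -0.236 to 0.381 and Ifit3b -0.247 to 0.329 after size factors, with the lowest value of each without vector tumor 3 and the highest without vector tumor 1. With the length trend removed, Samhd1, Sp100, Irgm1 and Iigp1 had 0.596, 0.128, 0.418 and 0.407 on the deposited scale, and Bst2 -0.256 after size factors. The cause was not tested.

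Replicate numbers were not taken to pair the tumors. Deviations of same-numbered tumors correlated at 0.03, 0.007 and 0.044, beside -0.054 to 0.021 for the other pairs. With 3 tumors per group, these values can neither show nor exclude a pairing. A replicate block gave 4 rising (background 11.1%) and 21 falling members (background 57.8%) as deposited. After size factors it gave 12 rising (background 25.9%) and 7 falling (background 23.9%). TPM keeps no depth, so no counting error can be given from these values.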
